A study of Mus musculus with 2 samples.

Results

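Mediator is the large complex that carries signals from enhancer-bound transcription factors to RNA polymerase II. Its head and middle modules contact the polymerase, its tail module binds activators, Med14 is the backbone that joins these parts, and a dissociable kinase module (Cdk8 or Cdk19, cyclin C, Med12 and Med13) controls its access to the polymerase. Embryonic stem cells depend on Mediator, together with cohesin, for the transcription of their identity genes. N6-methyladenosine (m6A) is deposited on mRNA mainly by the Mettl3 and Mettl14 methyltransferase at adenosines in RRACH 5-mers (R is A or G, H is A, C or T), often close to the stop codon. The mRNAs of the Mediator subunits are described here by the m6A positions that 10 tools listed in them from direct RNA sequencing.

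Genes were chosen by name: protein-coding genes whose symbol is Med with a number, with Ccnc, Cdk8 and Cdk19 added, which gave 33 genes. They held 400 of the 160430 positions found in any list, in 32 of the 33 genes, and Med12l held none. Poly(A) RNA came from embryonic stem cells of the mouse 129 background, either wild type (WT) or with a Mettl3 knockout (KO). The knockout was made with CRISPR–Cas9: on both alleles, drug resistance cassettes (puromycin, hygromycin) stand in place of Mettl3 exons 5 to 7. There was 1 library of each genotype, sequenced as native RNA on an Oxford Nanopore (ONT) MinION flow cell.

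Tombo, MINES, Nanom6A, m6Anet, ELIGOS and Epinano each read one sample at a time, and xPore reads WT and KO together. For these 7 tools there was a list for WT and another for KO. For Nanocompore, DiffErr and DRUMMER there was 1 list of positions that differed between WT and KO, here called a comparison list. Positions in a WT list or a comparison list are called the WT side. The lists give positions without score, methylation level or read number, so the depth behind a position is unknown, and an unlisted position may have had no reads. For Tombo and Epinano at least, the WT lists hold more positions than the study describes at its chosen cut-offs, so a listed position need not be one that the study counted as m6A. The WT list of xPore and the 3 comparison lists go the other way. They hold fewer positions than the smallest number of sites that the study describes for a tool. A position missing from these lists may therefore be one that the study counted. What sets the KO list of xPore apart from its WT list is not given in the sources used here, and its KO entries may differ in meaning from those of the other tools. With 1 library per genotype no difference was tested, positions are not replicates, and every interval below is a 95% interval that covers counting error only.

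The labels were checked at Mettl3 first. In its exons 1 to 4, 7 WT-side and 0 KO positions were listed, in exons 5 to 7 the numbers were 2 and 0, and in exons 8 to 11 they were 4 and 5. Of 10 embryonic stem cell markers, 9 had listed positions, 235 on the WT side and 185 in KO. Of 7 fibroblast markers 1 had any, Col1a1 with 0 on the WT side and 3 in KO, and of 6 markers of differentiating cells 1 had any, Sox17 with 12 and 0. The part of these markers in the Mediator counts was not tested.

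Of the 400 Mediator positions, 326 lay on the WT side and 261 in a KO list, with 187 on both, 139 on the WT side only and 74 in KO only. The comparison lists held 10 of them, in Med7, Med9, Med21, Med28 and Med29. These 5 are small subunits of the middle module and of the group that joins head and tail. The head had 0 of its 62 WT-side positions in a comparison list (0 to 5.83%), the tail 0 of 68 (0 to 5.35%), the kinase module 0 of 41 (0 to 8.57%) and Med14 0 of 7 (0 to 35.4%). These intervals all hold the all-gene share of 2.47%, so a lack of such positions there could not be told from the background. The middle module had 7 of 108, 6.48% (3.17 to 12.8%), 5 of them in Med7, and the joining group 3 of 40, 7.5% (2.58 to 19.9%), with intervals just above the all-gene share, and no difference between modules was tested. The 10 positions were in 3.07% of the WT side (1.67 to 5.55%), against 2.47% over all genes. They fell in 5 of the 31 Mediator genes with a WT-side position, 16.1% (7.09 to 32.6%), against 17.1% of protein-coding genes. Both shares were thus near the background.

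The sequences of the 10 comparison-list positions are shown because they are the positions where WT and KO signals were called different. Each stretch is read from the GRCm38 (mm10) genome on the strand of the gene, 5′ to 3′, with the RRACH 5-mer in capitals, and the listed A is the third of its letters. The number after the gene is the distance of that A from the first base of the stop codon along the annotated transcript, negative in the coding sequence. All 10 lie in the last exon of their transcript.
Med7 -581 nt (chr11:46440688-46440708, + strand): ccaattaaAGACAgctacatg
Med7 -428 nt (chr11:46440841-46440861, + strand): aatttcttAGACCttttagac
Med7 -300 nt (chr11:46440969-46440989, + strand): agcaagagAGACTttgagagt
Med7 -62 nt (chr11:46441207-46441227, + strand): cacagaagGGACCagattata
Med7 98 nt (chr11:46441367-46441387, + strand, 3′ UTR): atactaagAGACTttttttca
Med9 -2 nt (chr11:59960761-59960781, + strand): atccccaaGGACTaggccagc
Med21 -5 nt (chr6:146650270-146650290, + strand): tctctcccAGACTcatagcat
Med28 75 nt (chr5:45525413-45525433, + strand, 3′ UTR): tgttggaaGGACTctgttgga
Med29 -83 nt (chr7:28386857-28386877, - strand): tgtgccaaAGACAttcatact
Med29 -62 nt (chr7:28386836-28386856, - strand): gccctgctGGACTgtgccaac

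Med7, which pairs with Med21 to form the hinge of the middle module, had 5 of the 10 positions. They are spread over 679 nt of its last exon, with gaps of 153, 128, 238 and 160 nt. The position at -62 nt (46441217) was listed by all 10 tools on the WT side and by no tool in KO. It is the only Mediator position that all 10 tools listed. The position at -300 nt (46440979) was listed by 9 tools on the WT side, MINES being the exception, and by Tombo and Nanom6A in KO.

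The Med7 position in the 3′ UTR at 98 nt (46441377) was listed by 8 tools on the WT side, without MINES and xPore, and by xPore in KO. It is the only one of the 10 with a run of 5 or more equal bases within 10 bp. DiffErr and DRUMMER listed the Med7 positions at -300, -62 and 98 nt, and Nanocompore listed all 5. The other pair, at -581 and -428 nt, had 6 and 4 tools on the WT side. The former was in no KO list, and the latter was listed in KO by Tombo and Nanom6A.

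Over the whole gene, Med7 had 15 WT-side and 13 KO positions among 37 RRACH 5-mers of its transcript ENSMUST00000109232. By tool, Tombo listed 10 positions in WT and 6 in KO, Nanom6A 10 and 10, m6Anet 10 and 2, ELIGOS 4 and 1, Epinano 8 and 3, xPore 3 and 1 and MINES 2 and 0. Nanom6A was thus the only one of the 7 tools with as many Med7 positions in KO as in WT.

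In Med9, another small middle subunit, the GGACT at -2 nt (59960771) spans the end of the coding sequence: the last letter of the 5-mer is the first base of the stop codon. It was listed by 9 tools, all but Nanocompore, and by no tool in KO. In Med28, a subunit between head and tail, the GGACT at 75 nt in the 3′ UTR (45525423) was listed by 8 tools and by none in KO. MINES and Nanocompore did not list it, although GGACT is one of the 4 5-mers that MINES reports.

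In Med29, of the same group, DiffErr and DRUMMER listed the GGACT at -62 nt (28386846), and Nanocompore listed the AGACA at -83 nt (28386867), 21 nt upstream. The former was listed by 9 tools on the WT side and by m6Anet in KO, and the latter by 5 tools on the WT side and by none in KO. In Med21 the AGACT at -5 nt (146650280) was listed by Nanocompore and by Nanom6A in WT, and by no other tool. The positions listed by 1 comparison list (Med7 at -581 and -428 nt, Med21 and Med29 at -83 nt) were singled out after their values were seen.

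The comparison tools overlapped unevenly. Nanocompore listed 7 Mediator positions, and DiffErr and DRUMMER listed 6 each, the same 6. Nanocompore shared 3 with them, all in Med7. Over all genes Nanocompore listed 2107 positions, DiffErr 1752 and DRUMMER 1267, with 1117 in both DiffErr and DRUMMER and 519 in all 3.

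Of the 10 Mediator positions, 6 were in no KO list, 60% (31.3 to 83.2%), against 23.5% (22.1 to 25%) of the 3166 comparison-list positions of all genes. The interval for Mediator lies above the value for all genes, but it rests on 10 positions, 5 of them in 1 transcript. In WT, Nanom6A listed 10 of the 10, Tombo and m6Anet 9 each, Epinano 8, ELIGOS and xPore 6 each and MINES 3. The median number of tools on the WT side was 8, against 6 for comparison-list positions of all genes.

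**Figure D1:**
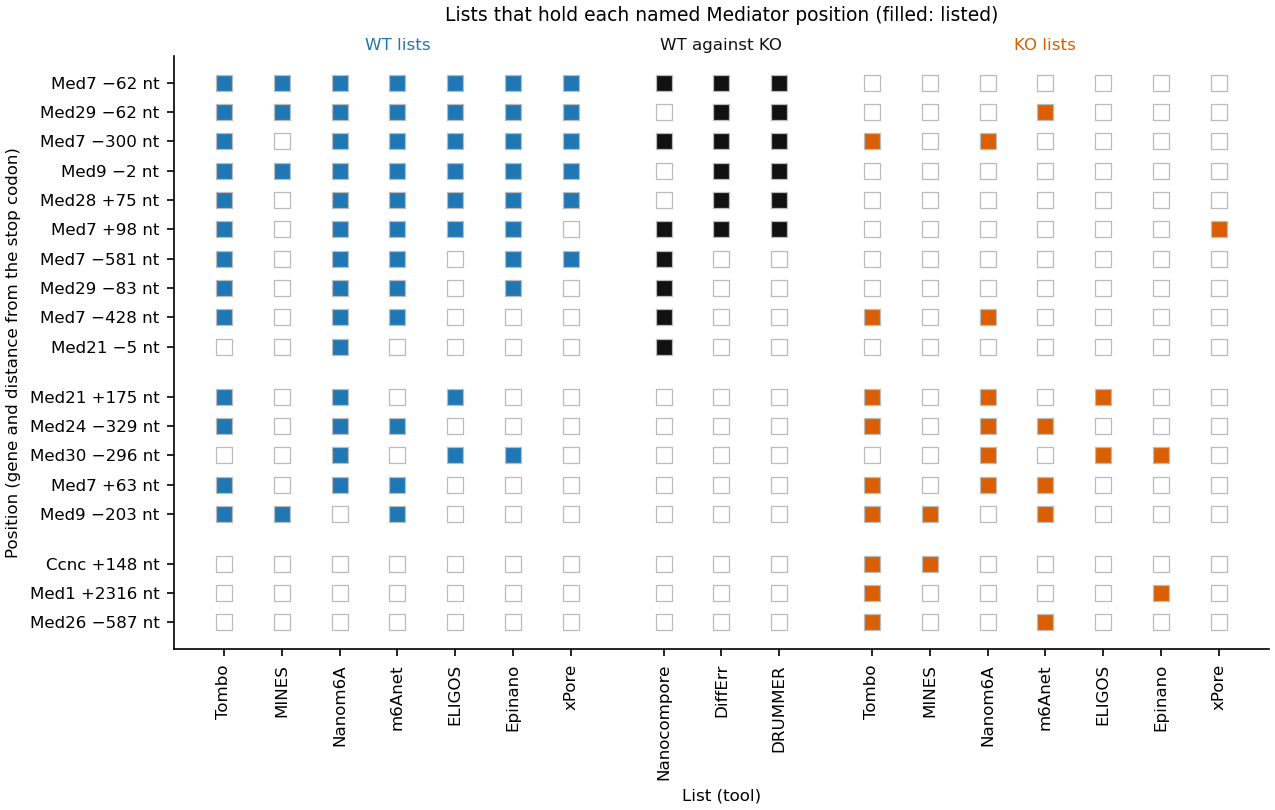
Lists that hold the named Mediator positions. Rows are positions, given by gene and distance from the stop codon, columns are the 7 WT lists, the 3 comparison lists and the 7 KO lists, and a filled square means that the list holds the position. The upper 10 rows are the comparison-list positions, the 5 rows in the middle were listed by 3 tools in both WT and KO, and the lower 3 rows were in KO only, by 2 tools each.

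Positions at the other end, listed in WT and again in KO by the same tools, numbered 178, 54.6% (49.2 to 59.9%) of the WT side, against 55.2% over all genes. Of these 147 had 1 tool, 26 had 2 and 5 had 3, and none had more. The 5 are shown because these tools made the same call with and without Mettl3, and none is in a comparison list.
Med21 175 nt (chr6:146650450-146650470, + strand, 3′ UTR): taagtaaaAAACTctgaaatt
Med7 63 nt (chr11:46441332-46441352, + strand, 3′ UTR): ttcctctcAGACAgtcttaag
Med9 -203 nt (chr11:59960560-59960580, + strand): atggacaaGGACAgcccggat
Med24 -329 nt (chr11:98705577-98705597, - strand): cgctccatGAACAgctccctc
Med30 -296 nt (chr15:52719397-52719417, + strand): aagctgcaGGACCaccttcgg

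The tools were Tombo, Nanom6A and ELIGOS for Med21, Tombo, Nanom6A and m6Anet for Med7 and for Med24, Tombo, MINES and m6Anet for Med9, and Nanom6A, ELIGOS and Epinano for Med30. In Med7 and Med9 these positions lie 125 and 201 nt from the positions that 10 and 9 tools listed on the WT side and none in KO. Med24 belongs to the tail, and Med30 to the subunits between head and tail. The Med21 position is the only one of the 5 with a run of 5 or more equal bases within 10 bp.

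The 74 positions listed in KO only made up 28.4% (23.2 to 34.1%) of the KO positions, against 29.2% over all genes. Of these, 6 had 2 tools, 8.11% (3.77 to 16.6%), and none had more, while over all genes 9.99% had 2 or more, so both shares were near the background. The first 3 in genomic order are shown as positions listed without Mettl3 that no tool listed in WT.
Ccnc 148 nt (chr4:21748230-21748250, + strand, 3′ UTR): aaagcattGGACAgtttgagt
Med26 -587 nt (chr8:72496066-72496086, - strand): tacacagtGAACTtggacggg
Med1 2316 nt (chr11:98152917-98152937, - strand, 3′ UTR): caagcctgGGACAcctccctc
Tombo listed all 3 in KO, together with MINES in Ccnc, m6Anet in Med26 and Epinano in Med1.

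By module, the head had 62 WT-side and 42 KO positions in its 7 genes, a ratio of KO to WT of 0.677 (0.447 to 1.02). Over all genes the ratio was 0.833, which lies inside the interval of each module except that of Med14. The ratio intervals treat both counts as independent, although many positions are in both. Med17, the core of the head, had 17 and 11. Med11, which pairs with Med22, had 13 and 7, and Med22 itself 4 and 5. Med20 had 11 and 6 and its partner Med18 3 and 4. Med8 had 8 and 6, and Med6 6 and 3. The highest support in the head was 5 tools, at a GGACT of Med11 and a GGACA of Med8.

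The middle module had 108 WT-side and 103 KO positions in 9 genes, a ratio of 0.954 (0.721 to 1.26). Med1, the main contact of nuclear receptors, had 17 and 22, and Med26, which recruits elongation factors, had 14 and 20. Med7 had 15 and 13, Med19 15 and 14, Med9 13 and 9, Med4 11 and 6, Med21 10 and 10, Med10 8 and 6 and Med31 5 and 3. m6Anet listed 0 positions of Med26 in WT and 5 in KO, and none in Med1 in either. Med1 and Med26 are the only genes of this module with more KO than WT-side positions.

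The 4 subunits between head and tail had 40 and 38 positions, a ratio of 0.95 (0.593 to 1.52). Med27 had 12 and 13, Med28 12 and 12, Med29 7 and 8 and Med30 9 and 5. In Med28, Nanom6A listed 7 positions in WT and 9 in KO, while Epinano listed 4 and 0.

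The tail had 68 and 40 positions in 5 genes, a ratio of 0.588 (0.388 to 0.882). Med24 had 22 and 15, the most on the WT side of any Mediator gene, Med25 15 and 7, Med16 12 and 4, Med23 12 and 9 and Med15 7 and 5. m6Anet listed 14 tail positions in WT and 2 in KO, with 9 and 2 of them in Med24 and 5 and 0 in Med25. Med14, the backbone, had 7 positions on the WT side and none in KO, for which the upper bound of the ratio is 0.694, below the all-gene value but resting on 7 positions. Tombo listed 4 of the 7, Epinano 3 and MINES 1.

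The kinase module had 41 and 38 positions in 6 of its 7 genes, a ratio of 0.927 (0.58 to 1.48), and 18 were on both sides. Ccnc (cyclin C) had 10 and 15, its kinase Cdk8 16 and 10, Med12, which activates the kinase, 7 and 8, and Med13, which links the module to the core, 7 and 1. The paralogs were sparse: Cdk19 had 1 and 3, Med13l 0 and 1 and Med12l none. No position of this module had more than 3 tools on the WT side, and in WT Nanom6A, m6Anet, ELIGOS and xPore listed none in it. Paralogous genes may share reads, and this could not be checked from the lists.

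**Figure D2:**
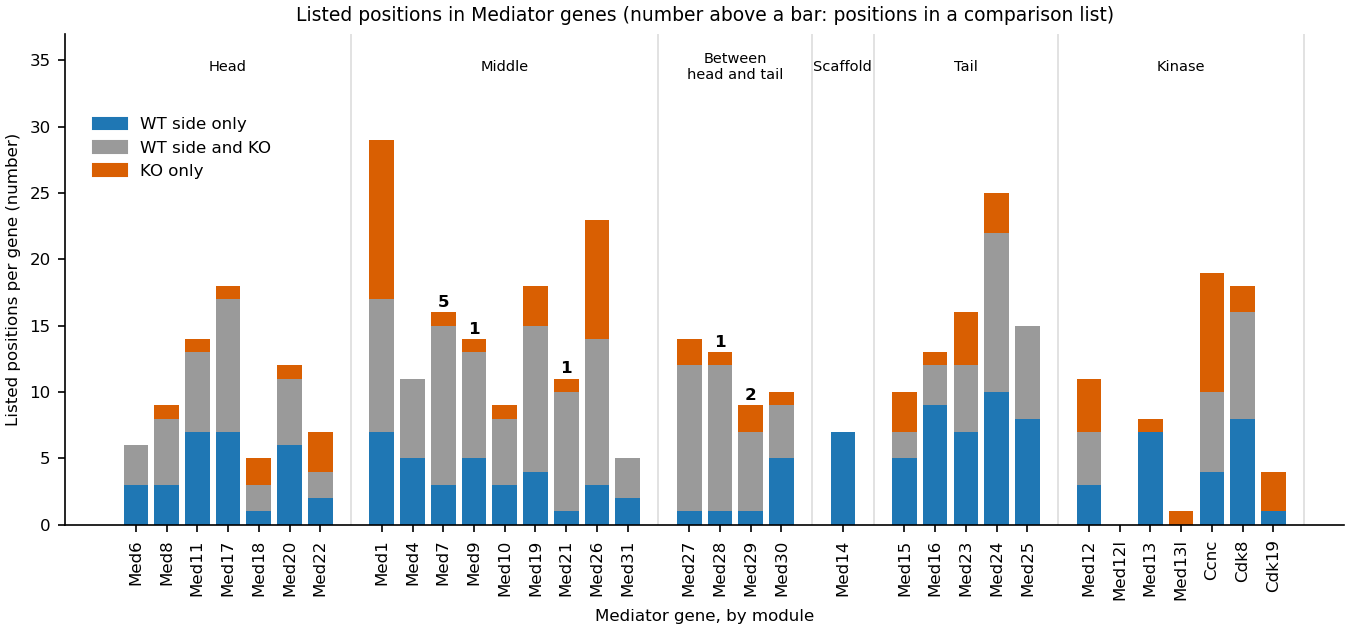
Listed positions in each of the 33 Mediator genes, by module. The y axis is the number of positions, stacked as WT side only, WT side and KO, and KO only, and the number above a bar is that of comparison-list positions. Med1 has the tallest bar with 29 positions, Med14 has WT-side positions only, and the numbers stand over Med7 (5), Med29 (2), Med9, Med21 and Med28 (1 each).

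KO positions outnumbered WT-side positions in 10 of the 32 genes with positions: Ccnc, Cdk19, Med1, Med12, Med13l, Med18, Med22, Med26, Med27 and Med29. This is 31.2% (18 to 48.6%), against 28.9% of all protein-coding genes with positions. In 20 genes they were fewer and in 2 equal. A gene had a median of 10.5 WT-side and 7 KO positions, against 11 and 9 over all protein-coding genes with positions.

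Each tool listed fewer Mediator positions in KO than in WT. Tombo listed 198 in WT and 165 in KO, a ratio of 0.833 (0.674 to 1.03), against 0.904 over all genes. Nanom6A listed 65 and 47, a ratio of 0.723 (0.486 to 1.07), against 0.828. For m6Anet the numbers were 80 and 37, a ratio of 0.463 (0.304 to 0.691), against 0.58. These 3 tools and MINES, with 29 and 15 and a ratio of 0.517 (0.258 to 0.997) against 0.703, lay below the all-gene ratio.

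Epinano listed 107 and 50, a ratio of 0.467 (0.327 to 0.66), against 0.339 over all genes. ELIGOS listed 17 and 7, a ratio of 0.412 (0.144 to 1.04), against 0.259, and xPore 10 and 7, a ratio of 0.7 (0.226 to 2.04), against 0.446. These 3 lay above the all-gene ratio. For each of the 7 tools the all-gene ratio was inside the Mediator interval, so a difference from all genes was not detectable with these numbers. For MINES, m6Anet and Epinano the interval excluded 1.

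**Figure D3:**
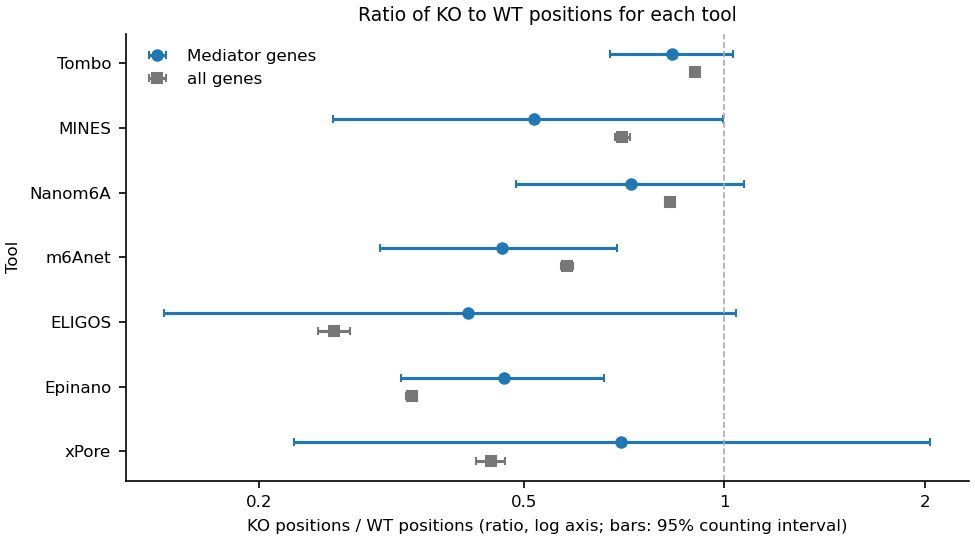
Ratio of KO to WT positions for the 7 tools with both lists. The x axis is the ratio on a log axis, circles are Mediator genes, squares are all genes, bars are 95% counting intervals, and the dashed line is a ratio of 1. Mediator ratios run from 0.412 for ELIGOS to 0.833 for Tombo, and each bar spans the square of the same tool.

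The same position was listed again in KO by the same tool for 59.1% of Tombo's WT positions in Mediator genes (52.1 to 65.7%), against 59.7% over all genes. For Nanom6A it was 55.4% (43.3 to 66.8%), against 65.2%, and for m6Anet 32.5% (23.2 to 43.4%), against 34.4%. MINES had 24.1% (12.2 to 42.1%), against 40.3%, ELIGOS 23.5% (9.56 to 47.3%), against 11.5%, Epinano 21.5% (14.8 to 30.2%), against 16.5%, and xPore 10% (1.79 to 40.4%), against 24.9%. Every all-gene value was inside the Mediator interval. Of the 326 WT-side positions, 139 were in no KO list, 42.6% (37.4 to 48.1%), against 41% over all genes. When Tombo was left out of both sides this share was 54.8%, against 53.2% over all genes.

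Most positions rested on 1 tool. On the WT side, 221 of 326 (67.8%) had 1 tool, 66 had 2, 23 had 3 and 16 had 4 or more. In KO, 206 of 261 (78.9%) had 1 tool, 43 had 2 and 12 had 3, and none had 4 or more. Over all genes the shares with 1 tool were 65.1% on the WT side and 76.6% in KO. Positions listed by at least 6 tools numbered 8, 2.45% of the WT side (1.25 to 4.77%), against 1.99% over all genes. They were the Med7 positions at -581, -300, -62 and 98 nt, those of Med9 at -2 nt, Med28 at 75 nt and Med29 at -62 nt, and a GGACT of Med10 at 131 nt in the 3′ UTR (chromosome 13, 69815818, + strand).

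The Med10 position was listed by 6 tools in WT (Tombo, Nanom6A, m6Anet, ELIGOS, Epinano and xPore), by no tool in KO and by no comparison list. Of the 8, 5 were in no KO list, 62.5% (30.6 to 86.3%), against 27.2% (25.5 to 28.9%) of such positions over all genes. All of the 8 except the Med10 position are also comparison-list positions, and 4 lie in Med7. This share is thus not independent of the one given for the comparison lists. Among positions with 3 to 5 tools, 25.8% (13.7 to 43.2%) were in no KO list, against 26.2%. Below that, 28.8% of positions with 2 tools and 48.4% of positions with 1 tool were in no KO list, against 31 and 47.3% over all genes.

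Along the transcript, 324 WT-side positions could be placed on a coding transcript, 10 in the 5′ UTR, 190 in the coding sequence and 124 in the 3′ UTR. Cdk8 was placed on a transcript annotated for nonsense-mediated decay, with 14 of its 16 WT-side positions in the 3′ UTR. On protein-coding transcripts only, 4 of them lay there, and all WT-side positions split into 10, 200 and 114, with the same share near the stop codon. Of these, 25.6% (21.2 to 30.6%) lay within 200 nt of the stop codon. In KO the share was 21.8% (17.3 to 27.2%), and in KO only 14.9% (8.51 to 24.7%). Among the 1569 RRACH 5-mers of the Mediator transcripts with a listed position it was 13.3%. Over all genes the shares were 22.1% on the WT side, 20.8% in KO, 14.9% in KO only and 12.5% of RRACH 5-mers. The 5-mers were pooled without weighting by listed positions. Med13 holds 151 of them and 7 WT-side positions, and Med13l 142 and 0. Long transcripts thus weigh more in the 5-mers than in the positions, and a difference between these shares was not tested.

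The share near the stop codon was larger with more tools. It was 21% (16.1 to 26.9%) with 1 tool, 21.2% (13.1 to 32.5%) with 2, 54.8% (37.8 to 70.8%) with 3 to 5 and 75% (40.9 to 92.9%) with 6 or more. Over all genes the same classes had 18.6, 24, 33.9 and 49.9%. For 3 to 5 tools the Mediator interval lies above the all-gene value, but transcript lengths were not matched. Of the 10 comparison-list positions 7 were near the stop codon, 70% (39.7 to 89.2%), against 49.9% over all genes, and all 10 lay in the last exon, against 82.4% over all genes.

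Between the tools, 76.5% (52.7 to 90.4%) of the 17 ELIGOS positions in WT were near the stop codon, against 37.8% of its positions over all genes. For m6Anet it was 47.5% (36.9 to 58.3%) of 80, against 30.7%, and for Nanom6A 43.1% (31.8 to 55.2%) of 65, against 30.6%. Tombo had 23.5% (18.1 to 29.9%), against 22%, MINES 27.6% (14.7 to 45.7%), against 23.8%, and Epinano 29.9% (22.1 to 39.2%), against 24.4%. In KO, ELIGOS had 5 of 7 near the stop codon, 71.4% (35.9 to 91.8%), against 22.5% over all genes, m6Anet 29.7% (17.5 to 45.8%), against 23.7%, Nanom6A 25.5% (15.3 to 39.5%), against 28.3%, and xPore 4 of 7, 57.1% (25 to 84.2%), against 34.9%. In WT xPore had 7 of 10, 70% (39.7 to 89.2%), against 40.6%. Tombo, MINES and Epinano each had 20% in KO, against 19.6, 19.4 and 18.4%. For each of the 7 tools the share was lower in KO than in WT, as it was for each of them over all genes, and neither was tested.

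The 5-mer GGACT, a strong substrate of the methyltransferase, made up 12% (8.88 to 15.9%) of WT-side positions, 8.05% (5.32 to 12%) of KO positions and 8.03% of the RRACH 5-mers on the transcripts. It made up 15.1% (10.1 to 22%) of positions on the WT side only, 9.63% of those on both and 4.05% (1.39 to 11.3%) of those in KO only. Over all genes GGACT made up 11.9% of the WT side, 9.73% of KO, 13.8% of positions on the WT side only, 10.7% of those on both and 7.46% of those in KO only, so the Mediator shares were near the background. GGAC followed by A, C or T made up 41% (33.2 to 49.3%) of positions on the WT side only, against 25.7% (19.9 to 32.4%) of those on both. Over all genes these shares were 36.6 and 33.1%, closer together than in the Mediator genes, and the difference was not tested.

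With the number of tools the GGACT share went from 6.79% with 1 tool to 19.7% with 2, 22.6% with 3 to 5 and 50% (21.5 to 78.5%) with 6 or more, beside 7.1, 16.1, 25.9 and 48.9% over all genes. Among the 10 comparison-list positions 4 were GGAC followed by A, C or T, 40% (16.8 to 68.7%), against 64.3% over all genes. The other 6 were AGAC 5-mers, 4 of them in Med7. Runs of 5 or more equal bases lay within 10 bp of 8.9% (6.27 to 12.5%) of WT-side and 9.96% (6.89 to 14.2%) of KO positions, against 6.92 and 7.12% over all genes.

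The number of listed positions per gene was nearly unrelated to transcript length. Across the 33 genes, which share 1 library on each side, the Spearman rho of the number with length was -0.101 (Pearson r -0.298) on the WT side and -0.108 (-0.191) in KO. The number of positions per 100 RRACH 5-mers was also taken for each gene. Its relation to length was not tested, and no all-gene value was computed for it. On the WT side this number ran from 0 in Med12l and Med13l to 83.3 in Med21, with a median of 30.4. In KO it ran from 0 to 83.3 with a median of 21.4.

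m6Anet listed a position, in WT or KO, in 20 genes with a median transcript length of 1832 nt, and Nanom6A in 16 of the 33 genes, none of them outside these 20. The other 12 genes with positions, with a median length of 5452 nt, had none from either tool. They were Ccnc, Cdk19, Med1, Med12, Med13, Med13l, Med14, Med15, Med16, Med18, Med20 and Med23, and their transcripts ran from 1675 nt in Med18 and 2054 nt in Med20 to 10546 nt. These 12 were 37.5% (22.9 to 54.7%) of the 32 genes with positions, against 43.7% of protein-coding genes with positions. Over all protein-coding genes the median length was 3432 nt without and 2540 nt with a position from either tool.

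Partners of Mediator in transcription were counted the same way. The 12 subunit genes of RNA polymerase II had 134 WT-side and 107 KO positions, with 6 comparison-list positions in 4 genes, Polr2c and Polr2e with 2 each and Polr2a and Polr2h with 1 each. Of 31 general transcription factor genes, 30 had positions, 365 on the WT side, 332 in KO and 8 in comparison lists, with 2 each in Gtf2e2 and Gtf2f2. Of 15 enhancer and elongation partners (cohesin, Ep300, P-TEFb and others), 14 had positions, 309 on the WT side, 271 in KO and 7 in comparison lists, 5 of them in Cdk9, the kinase of P-TEFb.

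The ratio of KO to WT-side positions was 0.799 (0.613 to 1.04) for RNA polymerase II, 0.91 (0.782 to 1.06) for the general transcription factors and 0.877 (0.742 to 1.04) for the enhancer and elongation partners. For Mediator it was 0.801 (0.678 to 0.945), and for all genes 0.833. The share of WT-side positions in a comparison list was 4.48% (2.07 to 9.42%), 2.19% (1.11 to 4.26%) and 2.27% (1.1 to 4.6%) in the same order, beside 3.07% for Mediator and 2.47% for all genes. Of genes with a WT-side position, 33.3% (13.8 to 60.9%), 22.2% (10.6 to 40.8%) and 21.4% (7.57 to 47.6%) had a comparison-list position. For all protein-coding genes it was 17.1%, inside each of these intervals. The share in no KO list was 26.9% (20.1 to 34.9%), 31.5% (27 to 36.4%) and 41.4% (36.1 to 47%), beside 42.6% (37.4 to 48.1%) for Mediator and 41% for all genes. No difference between the groups was tested. Cdk9 and Med7 held 5 comparison-list positions each, 5 of 7 and 5 of 10 in their groups.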

How the data were processed

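ONT DRS gave 1 WT and 1 Mettl3 KO library of poly(A) RNA from mouse embryonic stem cells. The authors basecalled the reads with Guppy, aligned them with minimap2 to the GENCODE VM18 transcriptome, ran each tool and deposited 17 lists of genome positions on mm10 (GRCm38), which hold no score and no depth. The cut-off of each list is not given in the sources used here. The precision is therefore that of the number of listed positions.

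The following was computed here. A position was a unique chromosome, base and strand, counted once over the lists. It was given to a Mediator gene where column 4 named its transcript (or symbol, for Nanom6A) and the base lay in its exons on the same strand in GENCODE M21. Of 383918 lines, 0.786% named no transcript or gene of that release. All 400 Mediator positions were RRACH in the genome, 398 lay on a coding transcript, and none was also assigned to another gene by column 4. Exons of genes that column 4 did not name there were not searched. RRACH 5-mers were counted on 1 annotated coding transcript per gene, the one that held most listed positions. Shares have Wilson intervals and ratios of KO to WT exact binomial (Clopper-Pearson) intervals. No test was made, since each condition has 1 library. The members, modules and lists were chosen with earlier results of these data known. Positions were named if 2 or 3 comparison lists or at least 7 of 10 tools held them, with the 5 listed by most tools in both WT and KO and the 3 listed by most tools in KO only, ties in genomic order.

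Alternatives were exons whatever column 4 named, 1 site per line, lists without Tombo or MINES, RRACH only, matching within 5 bp, the KO list of any tool, windows of 100 and 400 nt, and counts without Med1 or the paralogs. Lists without Nanom6A, counts without Med7 the share in no KO list without Tombo and placement on protein-coding transcripts only were added after seeing the data. One gene of the enhancer and elongation partners is not reported here and is not in their counts. Functions were tested on simulated data. Python 3.11.15 with scipy 1.17.1, pysam 0.24.0, numpy 2.4.6 and matplotlib 3.10.9, and samtools 1.23.1, were used.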

Additional observations from a re-analysis of the deposited data

How the results depend on the processing

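Of 71 alternative values for 21 results, 56 stayed within 1.5 times the count or within the interval of the value reported, and 15 moved. Assignment by exon alone and restriction to RRACH 5-mers kept the same 400 positions. They could therefore change no value, and the unchanged values they add to the 56 say nothing about stability. Counted 1 site per line, the WT side had 568 positions and the comparison lists 19. Without Tombo the WT side had 210 positions and KO 142, and the share of WT-side positions in no KO list was 54.8%. With the KO list of any tool, the share of WT positions listed again was 72.4% for MINES, 70.8% for Nanom6A, 57.5% for m6Anet, 58.8% for ELIGOS and 45.8% for Epinano. For Tombo it was 63.6% and for xPore 40%, both inside the reported intervals. Pooling the KO lists can only raise such a share in any set of genes. No all-gene share was computed under this rule, so these values cannot be set against the background. The share of WT-side positions near the stop codon was 16% within 100 nt and 44.4% within 400 nt, as the window itself sets. Without Med7 the comparison lists held 5 Mediator positions, all of them (100%) within 200 nt of the stop codon, and 4 positions had at least 6 tools. Both libraries carry replicate number 1 only. No paired analysis was possible because each condition has 1 library, and no replicate could be left out. Depth limits what an unlisted position means, and the lists do not give it.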
